A study of Mus musculus with 12 samples.

Results

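Kinesins are motor proteins that use ATP to move along microtubules or to take microtubules apart. One set builds the mitotic spindle, moves chromosomes and completes cytokinesis, and its genes are transcribed mostly in the G2 phase and mitosis. Another carries vesicles, mitochondria and other cargo through cells that do not divide, and a few members serve the cilium, the antenna through which Hedgehog signals pass. The hair follicle bulge, where CD34 marks stem cells of mouse skin, is known as a place of rarely dividing cells.

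The kinesins were taken as the genes whose platform symbol is Kif followed by a digit, which gave 37 of the 18193 genes on the array. Each was read by the probe set with the highest mean over all 12 arrays among the 99 probe sets tied to a single kinesin gene, so that mean level chose the probe set and is given here as a description. By role, 12 members act in mitosis and cytokinesis, 15 in cargo transport, and 10 in the cilium, in signalling or in other tasks. The CD34+ group held 6 arrays of keratinocytes that a magnetic sort (MACS) had retained for CD34, and the CD34- group held 6 arrays of the keratinocytes without it, all from the skin of mice of the strain labelled C57 DBA, with no treatment, genotype or age given in the labels. Both came from 3 isolations from pools of 6 or more mice, with 2 arrays for each RNA, and p-values over arrays are too small wherever arrays that share an RNA are alike. The comparison asked how the CD34+ fraction differs from the remaining keratinocytes, with cell cycle control as the stated interest of the study.

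All values are log2 RMA values, in which a difference of 1 means 2-fold. Cd34 itself averaged 10.15 (SD 0.55) over the 6 CD34+ arrays and 3.23 (SD 0.30) over the 6 CD34- arrays. Keratinocyte keratins were high in both fractions, with Krt15 at 13.24 in CD34+ and 13.52 in CD34- arrays and Krt5 at 12.17 and 13.20 in the same order. The 3 Trpn control probe sets, which mark the low end of the scale, read 2.31 to 2.95. The SD over all probe sets of an array was 1.93 to 2.08 for CD34+ arrays 1, 3 and 5, against 2.19 to 2.32 for the other 9 arrays. For Actb, the control probe set at the 3' end exceeded the one at the 5' end by 3.95 to 5.65 in CD34+ and by 1.82 to 3.24 in CD34- arrays. For Gapdh the same gap was 3.66 to 4.63 in CD34+ and 3.10 to 3.57 in CD34- arrays. The ranges of the fractions did not overlap for either gene. An effect of this gap on single probe sets therefore cannot be told apart from a difference between the fractions. In bulk RNA, fewer cells of a type and less RNA per cell cannot be told apart.

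Over the 37 kinesins, 13 fell and 4 rose in CD34+ cells by limma's test (adjusted p under 0.05), and 20 did not pass. Among all genes tested, 18.1% were called lower and 7.99% higher, and 26.1% in either direction, against 35.1% lower and 10.8% higher of the kinesins. The median log2 fold change of the kinesins was -0.23, beside 0.040 for all genes. In 9 of the lower and 3 of the higher members the 6 arrays of one fraction did not overlap the 6 of the other, which held for 8.77% of all genes in the lower and 4.17% in the higher direction. Of the 13 falls, 7 lay among the mitotic motors, 3 among the cargo motors and 3 among the other members. The 4 rises were those of 3 cargo motors and 1 other member. Averaging arrays 1 and 2, 3 and 4, and 5 and 6 gave 14 lower and 6 higher kinesins, beside 19.3% and 9.9% of all genes, and the array number as a block gave 13 and 5, beside 19.4% and 8.09%. Without CD34+ arrays 1, 3 and 5 the counts were 13 and 6, beside 10.4% and 8.81%, and on even-numbered arrays alone they were 8 and 0 by limma (13 and 6 at an unadjusted p under 0.05), beside 3.99% and 3.44%.

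**Figure D1:**
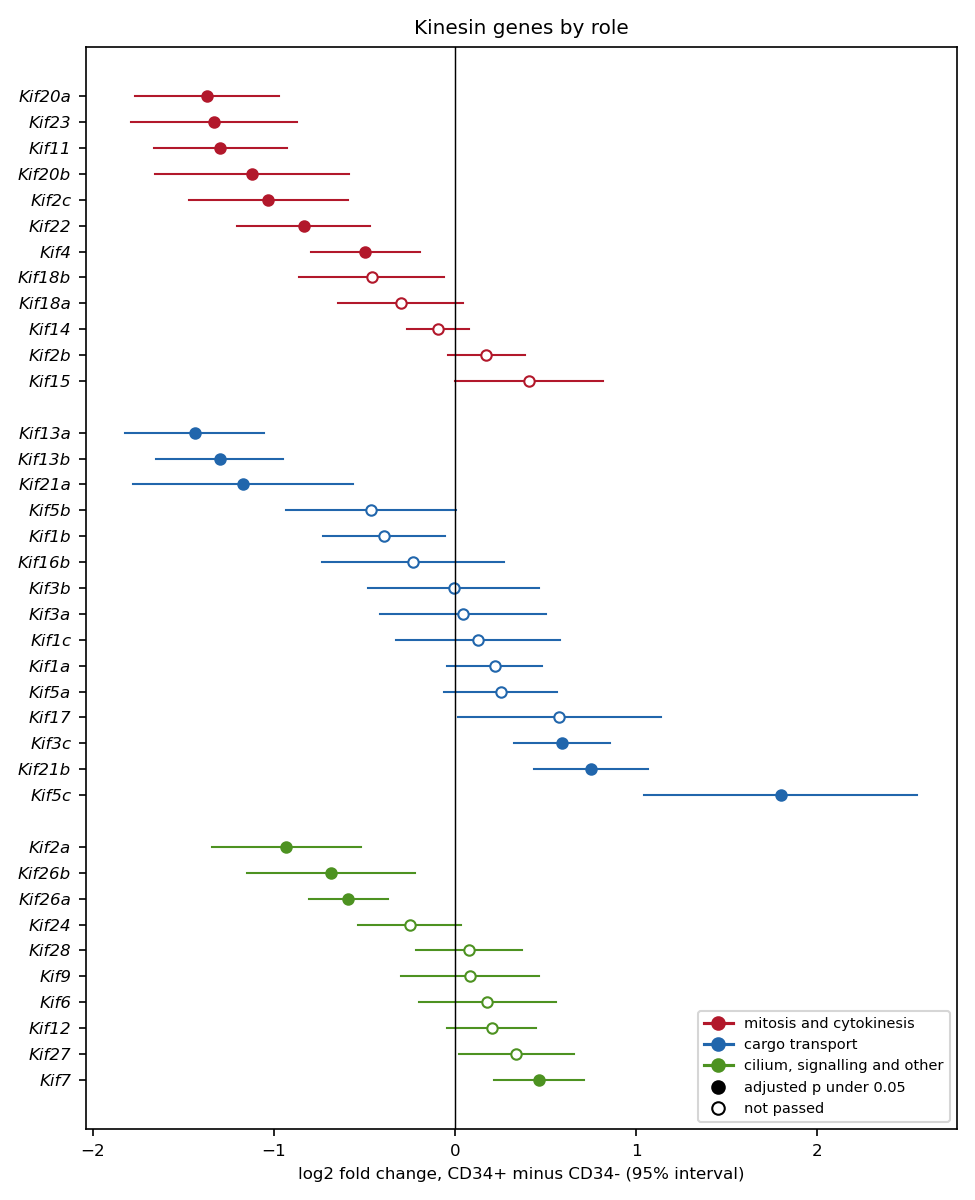
Log2 fold change (CD34+ minus CD34-) of each of the 37 kinesin genes with its 95% interval from limma, grouped by role. Filled points passed the threshold; 7 of 12 mitotic members lie below 0 and passed, while 3 cargo motors passed on each side of 0.

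Motors of mitosis and cytokinesis were lower in CD34+ cells in 7 of 12 cases, and 0 were higher by limma. These shares were 58.3% lower and 0% higher, beside 18.1% and 7.99% of all genes. At an unadjusted p under 0.05 the counts were 8 lower and 1 higher. The median log2 fold change of the 12 was -0.67. The falls ranged between 1.41-fold for Kif4 and 2.58-fold for Kif20a, and they covered motors of spindle assembly, of chromosomes and of the midzone.

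Kif20a, which brings the chromosomal passenger complex to the spindle midzone, read 3.44, 3.84 and 4.46 (lowest, median and highest of 6 arrays) in CD34+ cells and 5.00, 5.15 and 5.68 in CD34- cells. Every CD34+ array lay below every CD34- array. Its log2 fold change was -1.37 with a standard error of 0.19 (limma adjusted p = 0.000154). Kif23, the motor subunit of centralspindlin at the cleavage furrow, read 6.55, 7.34 and 7.996 in CD34+ cells, against 8.40, 8.60 and 9.08 in CD34- cells. The fractions were again apart, with a log2 fold change of -1.33 with a standard error of 0.21 (limma adjusted p = 0.000515). Another 2 probe sets of Kif23 read within the range of the Trpn controls on average, and 1 of them was called lower (-0.44, limma adjusted p = 0.00351 over all probe sets).

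Kif11, the bipolar kinesin-5 that slides spindle microtubules apart, read 3.90, 4.46 and 4.65 in CD34+ arrays and 5.33, 5.57 and 6.06 in CD34- arrays. No CD34+ array reached the CD34- range, and the log2 fold change was -1.30 with a standard error of 0.17 (limma adjusted p = 0.000124). A second Kif11 probe set was at -2.07, while another was at -0.13 and did not pass over all probe sets (limma adjusted p = 0.481). Kif20b, a motor of the midbody, read 3.71, 4.84 and 5.53 in CD34+ arrays, against 5.46, 5.94 and 6.27 in CD34- arrays. Here CD34+ array 4 lay above CD34- array 1, and the log2 fold change was -1.12 with a standard error of 0.25 (limma adjusted p = 0.00465). The 3 further Kif20b probe sets, at -0.25, -0.081 and -0.053, did not pass.

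Kif2c, a kinesin-13 that takes microtubules apart at centromeres, read 4.77, 5.68 and 6.23 in CD34+ cells and 6.46, 6.77 and 6.89 in CD34- cells. The arrays of the fractions did not overlap, and the log2 fold change was -1.03 with a standard error of 0.20 (limma adjusted p = 0.00217). Its probe set carries the suffix that Affymetrix gives to sets whose probes can match other transcripts, and of 3 further Kif2c probe sets 1 passed, at -0.42 (limma adjusted p = 0.00816 over all probe sets), while those at 0.23 and 0.016 did not. The chromosome-arm motor Kif22 (-0.84, limma adjusted p = 0.00280) and the chromokinesin Kif4, a partner of Prc1 at the midzone (-0.50, adjusted p = 0.0187), were lower too. Kif22 has the same kind of probe set, and Kif22 and Kif4 each have a pseudogene in RefSeq, so that signal shared with it cannot be told apart. A further probe set of Kif22 was at -1.26 (limma adjusted p = 7.4e-05 over all probe sets). Another, at -0.41, did not pass.

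The other 5 mitotic members did not pass. Kif18b, a motor at the plus ends of astral microtubules, was at -0.46 (limma adjusted p = 0.0819), and Kif18a, which damps the swings of chromosomes at the metaphase plate, was at -0.30 (adjusted p = 0.178). Kif15, which in human cells can stand in for Kif11, was at 0.41 (adjusted p = 0.125). In CD34+ arrays 1, 3 and 5 Kif15 averaged 5.13, in CD34+ arrays 2, 4 and 6 it averaged 4.39, and in CD34- arrays it averaged 4.35. Kif14, a motor of cytokinesis, and Kif2b, which acts at kinetochores in human cells, read within the range of the Trpn controls in both fractions, and their differences were -0.093 and 0.17.

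Without CD34+ arrays 1, 3 and 5, 8 of the 12 passed as lower, Kif18b among them, beside 10.4% of all genes. On even-numbered arrays alone, 3 against 3, 5 passed as lower (Kif20a, Kif23, Kif11, Kif20b and Kif2c) beside 3.99% of all genes, and Kif22 (limma adjusted p = 0.133) and Kif4 (adjusted p = 0.164) did not.

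**Figure D2:**
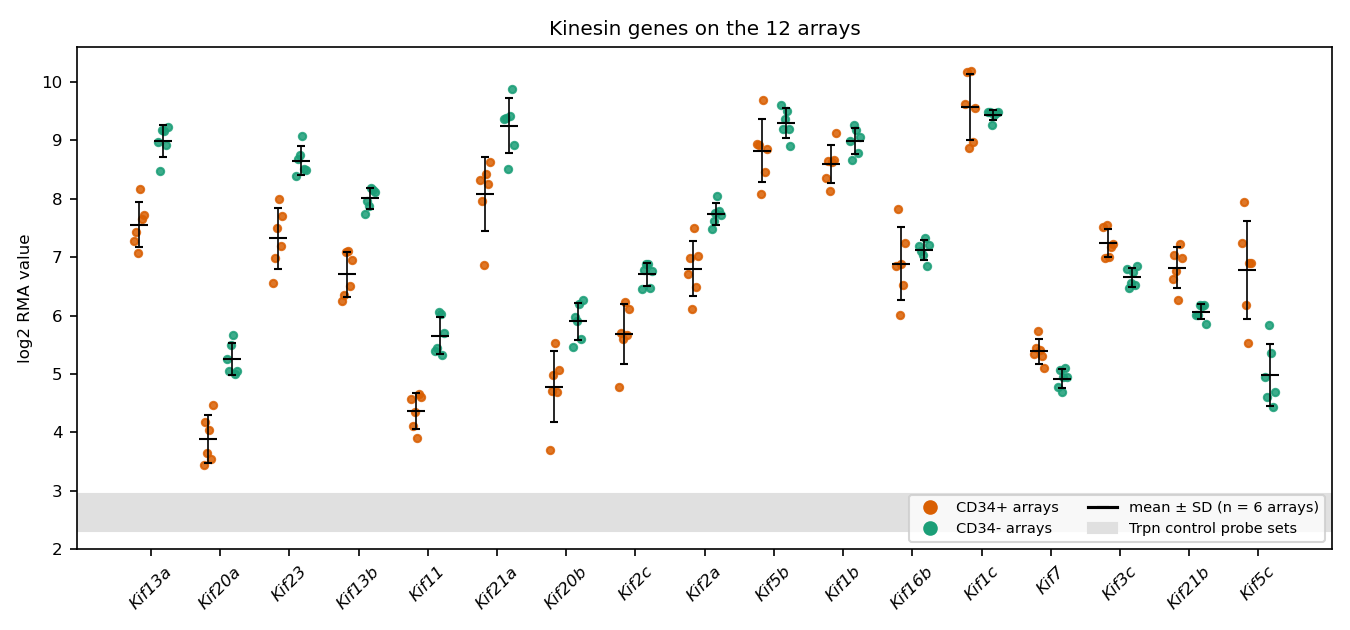
Log2 RMA value on each of the 12 arrays for the 17 kinesins described in full, ordered by fold change, with the mean and SD of 6 arrays per fraction and the range of the Trpn controls in grey. The lower members stand on the left, the 4 members that did not pass in the middle and the 4 higher members, ending with Kif5c, on the right.

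Some genes that mark other properties of the fractions moved with the mitotic motors. Of 6 keratinocyte markers 4 were lower in CD34+ cells and 0 higher by limma (5 and 0 at an unadjusted p under 0.05), with a median of -0.65. The 4 were Krt14 (-1.37), Krt5 (-1.04), the integrin Itga6 (-0.82) and the transcription factor Trp63 (-0.42). The summed level of all 6 keratinocyte markers was 14.20 to 14.89 in CD34+ and 14.87 to 15.42 in CD34- arrays. The 5 cycling cell markers were all lower in CD34+ cells, among them Mki67, a protein of dividing cells, at 8.57 (SD 0.40) over the 6 CD34+ arrays and 9.84 (SD 0.35) over the 6 CD34- arrays (log2 fold change -1.26, limma adjusted p = 0.000412). All 8 measured T cell markers were lower as well, with a summed level of 8.50 to 9.85 in CD34+ and 10.72 to 11.67 in CD34- arrays on the log2 scale. Ptprc at 6.64 in CD34+ and 9.44 in CD34- arrays and Thy1 at 6.73 and 8.63 in the same order had the highest means of that list, and none of the 8 was at the level of the Trpn controls. Of 10 Langerhans and myeloid markers 5 were lower and 0 higher by limma (6 and 0 at an unadjusted p under 0.05), with summed levels of 9.62 to 9.96 in CD34+ and 10.09 to 11.07 in CD34- arrays. Their highest means were those of H2-Aa (8.34 in CD34+, 8.92 in CD34- arrays) and H2-Eb1 (7.11 and 7.84), and Itgam read within the Trpn range in both fractions. The sums were taken over linear values, so they lean on the members with the highest values. The shares called lower were 66.7% of keratinocyte, 100% of cycling cell, 100% of T cell and 50% of myeloid markers, beside 18.1% of all genes. The part of keratinocyte content, T cells or myeloid cells in the kinesin result was not tested.

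Partners of the mitotic motors on the spindle showed the same direction. Of 21 listed spindle and midzone genes, 17 fell and 0 rose by limma (17 and 1 at an unadjusted p under 0.05), with a median of -0.90. That was 81.0% lower, beside 18.1% of all genes. Nusap1, which bundles spindle microtubules, fell by 2.07, the cytokinesis regulator Ect2 fell by 1.78, and the furrow protein Anln fell by 1.68. Cenpe, the kinetochore kinesin that does not carry the Kif name, fell by 0.40 (limma adjusted p = 0.0366), and the minus-end-directed spindle motor Kifc1 fell by 0.78 (adjusted p = 0.0157). Racgap1, the partner of Kif23 in centralspindlin, was at -0.62, and Prc1, the partner of Kif4, at -1.54, both read outside the naming rule, once their values were known. The list was chosen with earlier results of the same arrays known, so its direction is not independent evidence.

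**Figure D3:**
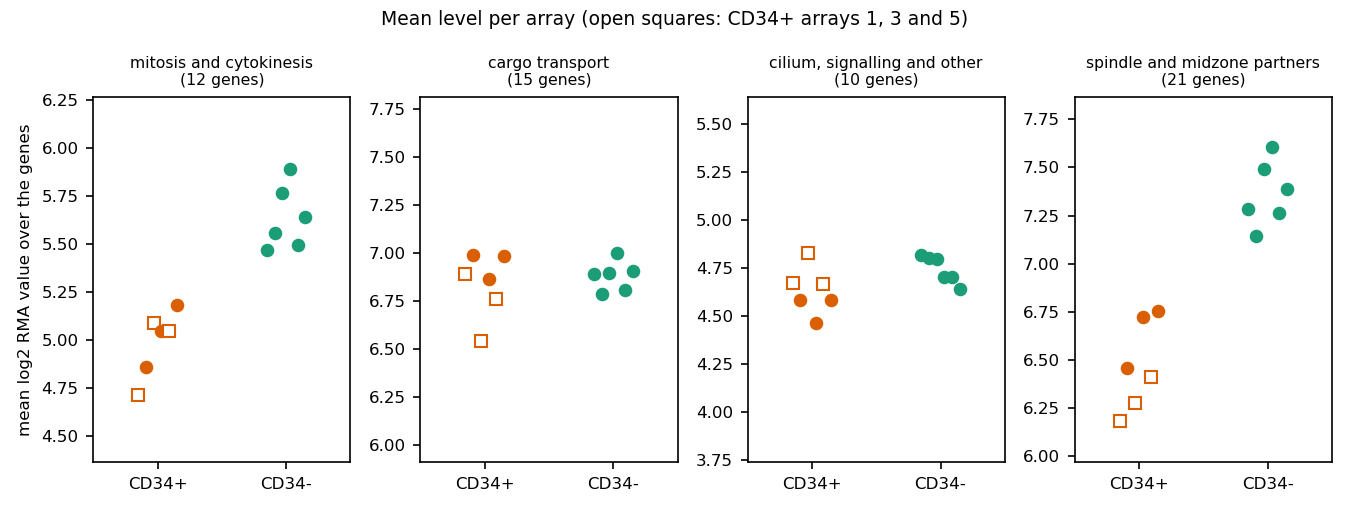
Mean log2 RMA value per array over the genes of each kinesin role and of the spindle partner list, with CD34+ arrays 1, 3 and 5 as open squares. The mitotic kinesins averaged 4.72 to 5.19 on CD34+ and 5.47 to 5.89 on CD34- arrays, while the cargo motors overlapped at 6.54 to 6.99 and 6.79 to 7.002.

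Promoters of the mitotic members were read because these genes moved together. RefSeq promoters, 250 bases before to 50 after a gene's start in GRCm38.p6, were held for 31 of the 37 kinesins, and 6 of the 7 lower mitotic members were among them. The letters TTTGAA or TTCGAA on either strand, known as the cell cycle genes homology region (CHR), where the DREAM complex and MYB-containing complexes bind at late cell cycle genes, were in all 6. They were in 9 of the 11 mitotic members with a promoter, in 1 of 11 cargo motors and in 3 of 9 other members, beside 19.2% of all promoters of that length and 21.7% of all genes with one. CCAAT on either strand, the core of the box that NF-Y binds, was in 4 of the 6, beside 41.1% of all genes, and TTCCCGC or TTGGCGC, forms of the E2F site, were in 0 of the 6, beside 7.79%. No motif letters overlapped another motif in these 6 promoters. A match is a description of the letters and not a bound site, and absence says only that the letters are not in the window.

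The stretches of the 6 lower mitotic promoters run from 200 bases before to 30 after the start, with TTTGAA and CCAAT matches (or their reverse complements TTCAAA and ATTGG) in capitals, and the promoter of Kif5c, the cargo motor with the largest rise, is shown because it holds no match. The motifs and the window were chosen after the results were seen.
Kif23, chr9:61946770-61946999, minus strand: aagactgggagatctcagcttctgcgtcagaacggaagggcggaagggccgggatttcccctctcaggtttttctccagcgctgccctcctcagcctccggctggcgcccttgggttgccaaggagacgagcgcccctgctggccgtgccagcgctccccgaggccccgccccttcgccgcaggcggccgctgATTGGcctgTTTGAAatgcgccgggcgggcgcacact
Kif11, chr19:37376182-37376411, plus strand: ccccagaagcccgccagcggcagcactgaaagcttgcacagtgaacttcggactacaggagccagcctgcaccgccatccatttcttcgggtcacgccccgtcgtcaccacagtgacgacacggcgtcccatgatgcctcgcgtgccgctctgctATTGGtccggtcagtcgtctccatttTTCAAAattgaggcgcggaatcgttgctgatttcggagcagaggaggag
Kif20b, chr19:34922158-34922387, plus strand: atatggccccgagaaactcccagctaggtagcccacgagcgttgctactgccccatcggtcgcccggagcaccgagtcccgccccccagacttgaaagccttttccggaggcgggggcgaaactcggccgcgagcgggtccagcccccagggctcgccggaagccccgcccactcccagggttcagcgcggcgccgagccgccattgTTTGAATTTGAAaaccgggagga
Kif2c, chr4:117178743-117178972, minus strand: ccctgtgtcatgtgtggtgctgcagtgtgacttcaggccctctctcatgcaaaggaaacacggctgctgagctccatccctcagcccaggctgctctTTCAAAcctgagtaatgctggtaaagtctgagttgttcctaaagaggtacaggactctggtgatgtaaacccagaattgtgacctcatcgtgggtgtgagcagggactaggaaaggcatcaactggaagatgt
Kif22, chr7:127042391-127042620, minus strand: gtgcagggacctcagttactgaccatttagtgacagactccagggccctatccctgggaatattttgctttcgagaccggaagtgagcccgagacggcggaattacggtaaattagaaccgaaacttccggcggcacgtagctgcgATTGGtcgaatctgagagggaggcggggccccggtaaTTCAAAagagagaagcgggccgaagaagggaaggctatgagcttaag
Kif4, chrX:100625865-100626094, plus strand: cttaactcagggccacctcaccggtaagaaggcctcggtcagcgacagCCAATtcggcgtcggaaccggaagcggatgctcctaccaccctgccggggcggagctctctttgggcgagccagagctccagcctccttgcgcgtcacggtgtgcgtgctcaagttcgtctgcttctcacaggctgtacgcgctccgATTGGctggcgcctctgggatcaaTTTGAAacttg
Kif5c, chr2:49619086-49619315, plus strand: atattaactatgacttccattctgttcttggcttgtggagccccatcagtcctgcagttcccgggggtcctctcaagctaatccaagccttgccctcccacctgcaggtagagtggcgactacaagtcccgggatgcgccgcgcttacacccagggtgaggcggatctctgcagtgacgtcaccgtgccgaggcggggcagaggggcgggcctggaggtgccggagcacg

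The CHR match lay close to the start in 5 of the 6 lower mitotic promoters. Counted from the start, its first base was at -19 in Kif11, -17 (and -215) in Kif22, 3 in Kif23, 8 and 14 in Kif20b and 20 in Kif4. In Kif2c it was at -103, and the RefSeq start used there lies inside the annotated gene (117159633 to 117182624 on chromosome 4). Of the mitotic members that did not pass, Kif18b held the letters at 4 and Kif15 at -234 and -19, so the match did not separate the called members from the rest.

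**Figure D4:**
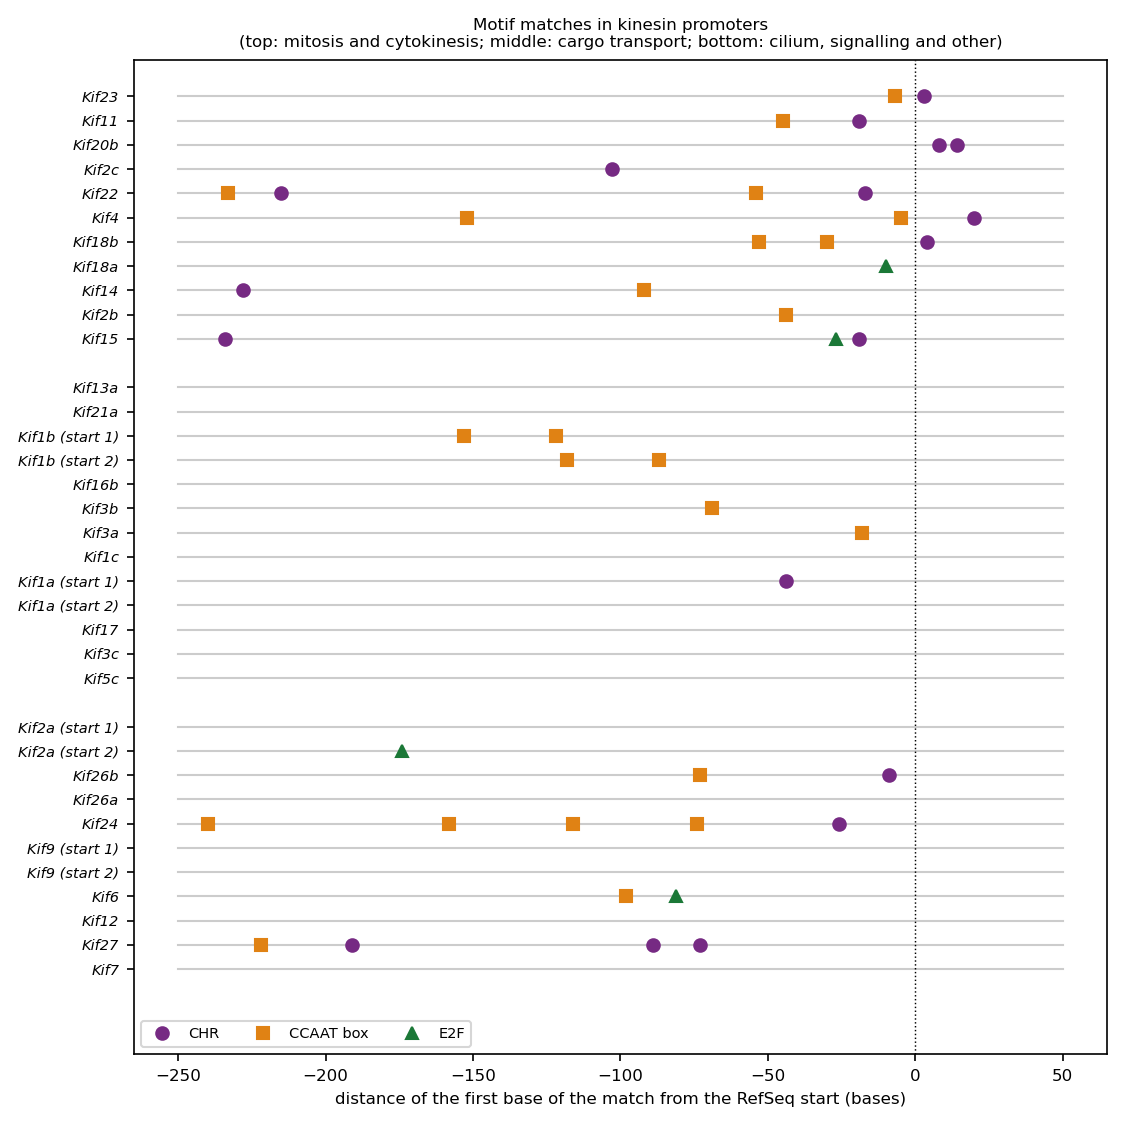
Distance in bases from the RefSeq start to the first base of each CHR, CCAAT and E2F match in the 35 promoters of 31 kinesins, mitotic members at the top, cargo motors in the middle and other members at the bottom. Most CHR matches of mitotic members lie near the start, with matches farther off in Kif2c (-103), Kif22 (-215), Kif14 (-228) and Kif15 (-234), while 1 of 11 cargo motors holds one.

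Motors of cargo transport split, with 3 of 15 lower, 3 higher and 9 not passed in CD34+ cells. These were 20% in each direction, so that the lower share was near the 18.1% of all genes, and 7.99% of all genes were higher. The median log2 fold change was 0.046, close to that of all genes. The 3 falls were 2.25-fold to 2.71-fold, and the largest rise of any kinesin, 3.48-fold for Kif5c, was in the same class.

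Kif13a, a kinesin-3 that carries recycling endosomes, read 7.07, 7.54 and 8.17 in CD34+ cells and 8.48, 9.07 and 9.24 in CD34- cells. No arrays overlapped, and the log2 fold change was -1.44 with a standard error of 0.18 (limma adjusted p = 8.48e-05). Of 4 further probe sets of Kif13a, 1 passed, at -1.18 (limma adjusted p = 0.00326 over all probe sets), and those at -0.22, -0.13 and -0.50 did not. Kif13b, a close relative that binds the polarity protein Dlg1, read 6.25, 6.73 and 7.11 in CD34+ cells, against 7.74, 8.05 and 8.19 in CD34- cells. These arrays did not overlap either, with a log2 fold change of -1.30 with a standard error of 0.16 (limma adjusted p = 9.19e-05). Of 3 further Kif13b probe sets 1 passed, at -0.57 (limma adjusted p = 0.0284 over all probe sets), and those at -0.17 and 0.27 did not. Kif21a, which restrains microtubule growth at the cell cortex, read 6.87, 8.29 and 8.63 in CD34+ arrays and 8.51, 9.38 and 9.87 in CD34- arrays. CD34- array 3 lay within the upper part of the CD34+ range, and the log2 fold change was -1.17 with a standard error of 0.28 (limma adjusted p = 0.00784), with a second probe set also called lower at -0.94 (adjusted p = 0.00355) and another, not passed, at 0.080.

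Kif5c, a heavy chain of conventional kinesin known best from neurons, read 5.53, 6.89 and 7.95 in CD34+ arrays and 4.44, 4.82 and 5.84 in CD34- arrays. CD34+ array 4 fell inside the CD34- range, and the other 5 CD34+ arrays lay above all CD34- arrays. The log2 fold change was 1.80 with a standard error of 0.35 (limma adjusted p = 0.00205), and 2 of the 3 other Kif5c probe sets passed as higher too, at 0.72 and 0.27, the one at 0.27 from a level within the range of the Trpn controls, and the other, at 0.46, did not pass. Kif21b, the relative of Kif21a that acts on dendritic microtubules, moved the other way from it. It read 6.26, 6.88 and 7.23 in CD34+ arrays, all above the 5.86, 6.09 and 6.18 of CD34- arrays, with a log2 fold change of 0.75 with a standard error of 0.15 (limma adjusted p = 0.00200). Since Kif21a and Kif21b also act on microtubules themselves, the lower and higher counts of the cargo class depend on where they are placed.

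Kif3c, a kinesin-2 that pairs with Kif3a in neurons, read 6.99, 7.20 and 7.55 in CD34+ cells and 6.46, 6.65 and 6.85 in CD34- cells. The fractions did not overlap, and the log2 fold change was 0.59 with a standard error of 0.12 (limma adjusted p = 0.00325). A second Kif3c probe set was at -0.026 and a second Kif21b probe set at 0.12, and neither passed. Since these 3 rising motors are known from neurons, neural markers were set beside them. Of 7 measured Schwann cell and neuron markers 0 were higher and 2 lower by limma (0 and 2 at an unadjusted p under 0.05 as well), and their summed level was 8.59 to 9.60 in CD34+ and 9.44 to 9.93 in CD34- arrays. Mbp (8.73 in CD34+, 9.34 in CD34- arrays) and Ngfr (5.93 and 6.93) had the highest means of the list and were the 2 lower ones. The neuronal genes Snap25 (2.43 in CD34+, 2.34 in CD34- arrays), Nefl (2.68 and 2.69) and Tubb3 (3.01 and 2.84) averaged within the range of the Trpn controls over 12 arrays. The sum was taken over linear values, so it follows mostly Mbp and is no measure of neural content. Of 9 dermal fibroblast markers 5 were higher and 0 lower by limma (6 and 0 at an unadjusted p under 0.05), with summed levels of 10.17 to 12.32 in CD34+ and 9.54 to 10.68 in CD34- arrays. Vim (9.32 in CD34+, 8.64 in CD34- arrays) and Mmp2 (8.39 and 8.59) had the highest means there and did not pass. Vim averaged 11.25 on CD34+ arrays 1, 3 and 5 and 7.38 on CD34+ arrays 2, 4 and 6. The fibroblast sum was also taken over linear values, so it leans on the highest members and is no measure of fibroblast content. The 5 that passed, named after their values were seen, had log2 fold changes of 3.15 (Col1a2), 3.02 (Col5a2), 2.21 (Dcn), 1.14 (Col1a1) and 0.63 (Lum). Of 7 melanocyte markers 2 were higher and 1 lower by limma (3 and 2 at an unadjusted p under 0.05). Summed levels of these 7 were 10.01 to 11.04 in CD34+ and 8.49 to 8.85 in CD34- arrays, but the median log2 fold change was -0.00052. This sum over linear values follows mostly Mitf and is no measure of melanocyte content. Mitf (10.15 in CD34+, 7.01 in CD34- arrays) and Dct (6.46 and 6.82) had the highest means. Beside Mitf (3.13), the calls were Sox10 (0.49) and Tyrp1 (-0.67), both named after their values were seen. The shares called higher were 0% of neural, 55.6% of fibroblast and 28.6% of melanocyte markers, beside 7.99% of all genes. Those called lower were 28.6%, 0% and 14.3% in the same order, beside 18.1% of all genes, and the lists are short. The part of neural cells, fibroblasts or melanocytes in these rises was not tested.

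Without CD34+ arrays 1, 3 and 5 Kif5c was at 1.81 (limma adjusted p = 0.0172), Kif21b at 0.70 (adjusted p = 0.0125) and Kif3c at 0.42 (adjusted p = 0.0249), and on even-numbered arrays alone, 3 against 3, Kif5c was at 1.90 (adjusted p = 0.0873), Kif21b at 0.75 (adjusted p = 0.0913) and Kif3c at 0.39 (adjusted p = 0.165).

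Among the cargo motors that did not pass, 4 had the highest mean values. Kif1c, which carries integrin-bearing vesicles, read 8.87, 9.59 and 10.19 in CD34+ cells and 9.27, 9.48 and 9.49 in CD34- cells. CD34+ arrays lay on both sides of the narrow CD34- range, and the log2 fold change was 0.13 (95% interval -0.33 to 0.58, limma adjusted p = 0.667). CD34+ arrays 1, 3 and 5 averaged 9.16 and CD34+ arrays 2, 4 and 6 averaged 9.97, and without CD34+ arrays 1, 3 and 5 Kif1c passed as higher (0.53, limma adjusted p = 0.0203). Another of its probe sets was at -0.60 (limma adjusted p = 0.00645 over all probe sets), so no direction can be given for Kif1c.

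Kif5b, the conventional kinesin heavy chain found in most cells, read 8.09, 8.89 and 9.70 in CD34+ cells, against 8.90, 9.28 and 9.61 in CD34- cells. The ranges overlapped, with a log2 fold change of -0.47 (95% interval -0.94 to 0.01, limma adjusted p = 0.129). Its 6 probe sets were all negative and ranged from -0.13 to -1.39, and 2 of them passed over all probe sets. Kif1b, which carries mitochondria and synaptic vesicle precursors, read 8.14, 8.64 and 9.13 in CD34+ cells and 8.66, 9.03 and 9.26 in CD34- cells. It was at -0.39 (95% interval -0.73 to -0.06, limma adjusted p = 0.0799), and 1 of its 7 probe sets passed, at -0.80. Kif16b, a motor of early endosomes, read 6.00, 6.87 and 7.82 in CD34+ cells and 6.84, 7.15 and 7.33 in CD34- cells. The CD34+ arrays spanned the whole CD34- range, and its log2 fold change was -0.23 (95% interval -0.73 to 0.27, limma adjusted p = 0.467). A second Kif16b probe set passed as lower, at -0.96 (limma adjusted p = 0.0143 over all probe sets), and another, at -0.28, did not.

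The remaining cargo motors did not pass. Kif3a and Kif3b, the motor pair of kinesin-2 that drives traffic into cilia, had log2 fold changes of 0.046 (limma adjusted p = 0.883) and -0.0063 (adjusted p = 0.984). Other probe sets differed: 1 of 3 for Kif3a passed as higher (0.64, limma adjusted p = 0.0226 over all probe sets) and 1 of 3 for Kif3b as lower (-0.56, adjusted p = 0.0215). Kif17, a kinesin-2 that works as a homodimer, was at 0.58 (adjusted p = 0.116), with 6.36 on average in CD34+ arrays 1, 3 and 5, 5.21 in CD34+ arrays 2, 4 and 6 and 5.21 in CD34- arrays. Kif1a, the carrier of synaptic vesicle precursors, was at 0.22 (limma adjusted p = 0.192), and Kif5a, another conventional heavy chain, at 0.25 (adjusted p = 0.204). A further Kif5a probe set passed as higher, at 0.43 (limma adjusted p = 0.0288 over all probe sets), and one at -0.018 did not.

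**Figure D5:**
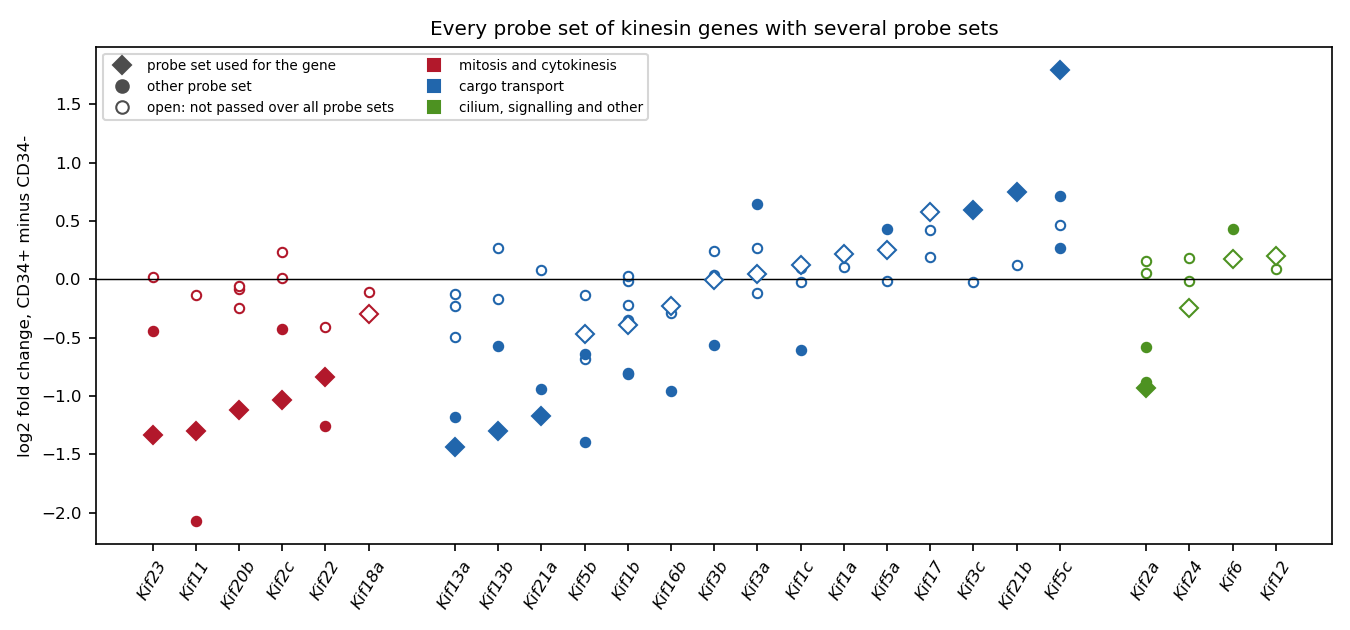
Log2 fold change (CD34+ minus CD34-) of every probe set of the 25 kinesins with more than 1 probe set, diamonds for the one used and circles for the others, filled where the probe set passed over all probe sets. Called probe sets of a gene lie on the same side of 0 in the genes whose used probe set passed.

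Probe sets of a gene did not always share its call. Beside the 37 used, 62 further probe sets belonged to 25 of the kinesins, and over all probe sets 15 of the 62 were lower, 5 higher and 42 not passed. The background over all probe sets was 13.9% lower and 7.64% higher. A total of 10 of the 62 read within the range of the Trpn controls. For none of the 17 called kinesins was another probe set called in the opposite direction. Of these, Kif20a, Kif4, Kif26a, Kif26b and Kif7 had only 1 probe set each and so could not differ.

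Partners of the cargo motors had both calls and many members that did not pass. Of 33 measured light chains, adaptors and other transport motors, 10 fell (30.3%, beside 18.1% of all genes) and 1 rose (3.03%, beside 7.99%), with a median of -0.14. Rhot1, which ties mitochondria to kinesin, fell by 0.96, the dynein regulator Pafah1b1 fell by 0.93, and Nde1, its partner, fell by 0.88. The kinesin light chain Klc1 fell by 0.43 (limma adjusted p = 0.0252), while Kifap3, the adaptor of Kif3a and Kif3b, was at -0.14 (adjusted p = 0.626) and the dynein heavy chain Dync1h1 at -0.64 (adjusted p = 0.0592). Of the minus-end kinesins, Kifc3 rose by 0.26 (adjusted p = 0.0438), and Kifc2 was at 0.24 (adjusted p = 0.266).

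Members of the cilium, signalling and other tasks had 3 lower, 1 higher and 6 not passed of 10, with a median of 0.080. The shares were 30% lower, beside 18.1% of all genes, and 10% higher, near the 7.99% of all genes. Kif2a, a kinesin-13 that shortens microtubules at spindle poles and in axons, read 6.12, 6.84 and 7.49 in CD34+ cells and 7.48, 7.74 and 8.04 in CD34- cells. CD34+ array 4 just exceeded the lowest CD34- array, and the log2 fold change was -0.93 with a standard error of 0.19 (limma adjusted p = 0.00279). Further Kif2a probe sets at -0.58 and -0.88 passed as lower, and those at 0.059 and 0.16 did not pass. Since Kif2a also acts at the spindle, the lower counts of this class and of the mitotic class depend on where it is placed.

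Kif26a and Kif26b, atypical kinesins that act in signalling and adhesion more than as motors, fell by 0.59 (limma adjusted p = 0.000936) and fell by 0.69 (adjusted p = 0.0324). Kif26a arrays did not overlap between the fractions, at 5.69, 6.01 and 6.19 in CD34+ and 6.42, 6.57 and 6.69 in CD34- cells. Kif26b lost its call when CD34+ arrays 1, 3 and 5 were left out (limma adjusted p = 0.0917), and also on leaving out any of 6 single arrays, CD34+ arrays 1 and 5 and CD34- arrays 1, 2, 3 and 5.

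Kif7, the kinesin that sets the tip of the cilium and controls the Gli factors of the Hedgehog pathway, rose. It read 5.10, 5.37 and 5.74 in CD34+ arrays, and the CD34- arrays read 4.70, 4.95 and 5.10. The highest CD34- array lay just under the lowest CD34+ array, with a log2 fold change of 0.46 with a standard error of 0.12 (limma adjusted p = 0.00915), which was 0.33 on even-numbered arrays alone (adjusted p = 0.200). Of 21 intraflagellar transport and Hedgehog genes 6 rose (28.6%, beside 7.99% of all genes) and 2 fell (9.52%, beside 18.1%), with a median of 0.12, and the largest changes were those of Gli2 (2.79), a Hedgehog transcription factor that Kif7 is known to regulate, Ift57 (1.81) and Ift81 (1.32), subunits of the intraflagellar transport train.

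The other 6 members of this class did not pass. Kif24, which holds back cilium growth at centrioles, was at -0.25 (limma adjusted p = 0.173), and Kif27, a relative of Kif7, at 0.34 (adjusted p = 0.107). Kif9 (0.083), Kif6 (0.18), Kif12 (0.20) and Kif28 (0.077) had adjusted p-values of 0.738, 0.455, 0.197 and 0.683, and Kif28 read within the range of the Trpn controls on average. Another probe set of Kif6 was at 0.43 (limma adjusted p = 0.0114 over all probe sets).

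The kinesins varied more among CD34+ than among CD34- arrays. The SD over 6 arrays was larger in CD34+ cells for 34 of the 37 members, with a median SD of 0.386 in CD34+ and 0.195 in CD34- arrays. The SD was larger in CD34+ arrays for 84.2% of all genes as well, so the larger spread was not particular to the kinesins.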

How the data were processed

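RNA of CD34+ and CD34- keratinocytes had been measured on 12 Affymetrix mouse expression arrays, 6 per fraction. The deposited table holds log2 values made by the authors with RMA, per the submitters' processing notes; the version, and whether all 12 arrays were normalized together, are not given in the sources used here. Arrays entered as separate samples, because the labels do not say which share an RNA. The members, roles and lists were chosen with earlier results of these data known. Kif28 was placed in its class after the arrays' annotation was read.

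Of 45101 probe sets, 64 controls were set aside. GEO's platform annotation tied 34945 to 1 gene, 932 to several and 9160 to none, with symbols updated through Entrez identifiers in RefSeq's gene table (GRCm38.p6). Each of 18193 genes was represented by the probe set with the highest mean over 12 arrays. The comparison used limma (version 3.58.1, under R version 4.3.3) with lmFit, eBayes and two-sided p-values, no block, and a Benjamini-Hochberg adjusted p under 0.05 over 18193 genes, and all 45037 probe sets were fitted in the same way. The number of arrays limits the precision. Alternatives changed the scaling, the arrays used, the averaging of arrays, the block, a filter on low values, the choice of probe set and the moderation.

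Full values are given for the 10 largest changes past the threshold, up to 4 members higher in CD34+ cells and the 4 members with the highest means that did not pass. The other members are given by fold change and adjusted p. Of each partner list the 3 largest called changes are named, with Cenpe, Kifc1, Kifc2, Kifc3, Klc1, Kifap3 and Dync1h1, and of marker lists the 2 members with the highest means and those at the low end of the scale. Genes outside these rules are marked as chosen after their values were seen. Promoter sequences came from RefSeq (GRCm38.p6).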

Additional observations from a re-analysis of the deposited data

Results flagged for a closer look

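Of 74 sets of 6 values tested, 37 members in 2 fractions, 2 held an array far from the other 5 by Dixon's criterion. Chance alone would give about 1 in 20 such sets. Kif5a read 4.545 on CD34+ array 3, 0.466 above the next highest CD34+ array. Kif1c read 9.268 on CD34- array 3, 0.167 below the next lowest CD34- array. Neither gene passed the comparison of the fractions.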

How the results depend on the processing

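The 17 called kinesins kept their direction in all 21 alternatives, and 8 kept their call in all of them (Kif20a, Kif23, Kif11, Kif20b, Kif2c, Kif13a, Kif13b and Kif21a). The direction could not change in several of these. Means of neighbouring arrays, the block, the filter on low values and the moderation leave each fold change as it is. Members with 1 probe set also keep it when the probe set is chosen by variance. Another 12 alternatives left out 1 array each. Of the 20 not called, 9 gained a call in some alternative. Further quantile normalization lost Kif4, called 5 transport partners higher and 1 ciliary partner lower, and put 57.2% of all calls on the lower side, against 69.4% in the deposited values. Means of neighbouring arrays called 2 other kinesins higher. Without CD34+ arrays 1, 3 and 5, 5 cargo motors and 6 transport partners were higher, 6 transport partners and 1 ciliary partner were lower, and the median of the other kinesins was -0.20. On even-numbered arrays limma called 8 kinesins lower and 0 higher (13 and 6 at an unadjusted p under 0.05), with 0 cargo motors higher, 0 other kinesins lower and 0 higher, and a median of -0.14 for the other kinesins; 9 spindle partners and 3 transport partners were lower, and 0 transport partners were higher (7 unadjusted) and 0 ciliary partners lower (1 unadjusted). Leaving out genes at the Trpn level, or moderating with trend and robust settings, called 0 transport partners higher by limma (4 and 2 unadjusted), and trend and robust moderation called 1 ciliary partner lower. With the most variable probe set per gene, 6 cargo motors were lower, 5 higher and 3 transport partners higher, and Kif1c turned to -0.60 (limma adjusted p = 0.00545). With that choice 22.6% of all genes were lower and 8.99% higher. The shares of all genes were 10.4% and 8.81% without CD34+ arrays 1, 3 and 5, and 3.99% and 3.44% on even-numbered arrays. The cause of these shifts was not tested.

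The array numbers did not settle whether the samples are paired. In all, 4 of 6 same-number pairs correlated above 0.1 (range -0.27 to 0.50), and 3 of 6 CD34+ arrays correlated best with their own number. A replicate block called 13 kinesins lower and 5 higher, 0 transport partners higher (3 unadjusted, limma) and 1 ciliary partner lower. Leaving out 1 array at a time gave 12 to 14 kinesins lower and 4 to 6 higher, 7 to 8 mitotic members lower with a median of -0.74 to -0.59, 3 to 4 cargo motors lower and 3 to 4 higher with a median of -0.08 to 0.14, and 2 to 3 other kinesins lower and 1 to 2 higher with a median of -0.01 to 0.16. Spindle partners lower numbered 15 to 17, transport partners lower 7 to 12 and higher 0 to 2, and ciliary partners lower 1 to 3 and higher 5 to 7. Kif26b was the only called kinesin lost in this way. The spread against which class medians were judged was set after their values were seen.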
